A study of Mus musculus with 6 samples.

Results

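Interleukins are secreted proteins through which leukocytes, epithelium and endothelium signal to each other, and each acts on cells that carry its receptor chains. Among the 24063 gene symbols counted in mouse lung endothelial cells (ECs), 83 are named as interleukins or their receptors, and they were taken by symbol alone (Il followed by a number, with further lower-case letters or digits). They comprised 37 ligands, 38 receptor chains, 6 inhibitors or decoy receptors and 2 other genes, Il4i1, an amino acid oxidase induced by IL-4, and Il1bos, a transcript antisense to Il1b. A count was found in at least 1 library for all but 8 of them (Il1f10, Il1f5, Il1f6, Il1f8, Il1rapl2, Il20, Il31 and Il9), for which 0 counts allow up to 0.0372 CPM (counts scaled to the TMM-adjusted library size) in the deepest library and 0.101 CPM in the shallowest, with 3 counts as the limit. The filter on low counts left 63 genes for testing, namely 23 ligands, 34 receptor chains, 4 inhibitors or decoys and the 2 others. The 20 untested genes reached at most 5 counts in any library.

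Both groups were male C57BL6 mice, for which the labels name no transgene or knockout. One group underwent left unilateral pneumonectomy (PNX), a surgery that takes out 1 lung and is followed by growth of the other, and was analysed at day 7, while the sham-operated group had a thoracotomy without PNX. There were 3 libraries per group, each from CD31-bead isolated ECs pooled from 2 mice, and the labels give an age of 8 weeks whereas the methods give an older age at surgery. CD31 is also carried by leukocytes and platelets, so the RNA is that of an enriched fraction. The comparison asks which interleukin genes differ in the EC fraction of the growing lung.

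Interleukins act mostly through pairs of receptor chains, of which one is often shared. Receptors of IL-1 and IL-33 pair with Il1rap and that of IL-18 with Il18rap, and all signal through Myd88, the common gamma chain Il2rg serves IL-2, IL-4, IL-7, IL-9, IL-15 and IL-21, gp130 (Il6st) serves IL-6 and IL-11, and IL-10 and IL-22 share Il10rb. ECs respond to IL-1, IL-4 and IL-6 with adhesion molecules, chemokines and changes in barrier function, whereas IL-10 limits inflammatory gene expression in macrophages.

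The libraries of a group were not equal. The labels mark replicates 1 and 2 of sham and of PNX as re-used, unlike replicate 3. From this mark the former were taken as an earlier deposit and replicate 3 as a later one, though the sample titles name no batch or date. Replicates 1 and 2 lay close to counting error, with a chi-square per degree of freedom of 1.75 in sham and 1.57 in PNX, against 67.9 to 86.4 for pairs with replicate 3. They were therefore counted as 1 sample, giving 2 samples per group. Total counts were 65763553 to 81282871 in the earlier and 29526989 to 33374216 in the later deposit. The interleukin genes took 0.174% to 0.177% of the counts in the earlier deposit and 0.210% to 0.223% in the later. Endothelial markers were abundant, with a summed level of 10 genes of 9267 to 11279 CPM in sham and 8420 to 9550 CPM after PNX and Pecam1 highest. Epithelial RNA was of a like order, and in sham replicates 1 and 2 the alveolar gene Ager (3362 and 3424 CPM) exceeded Pecam1 (2486 and 2494 CPM). The 8 alveolar markers summed to 6652 to 8909 CPM in sham and 2226 to 6113 CPM after PNX, and the 5 club airway markers, all called lower with the block, to 2473 to 4520 CPM and 1152 to 1204 CPM. Markers of fibroblasts (863 to 1006 and 2265 to 3232 CPM) and of leukocytes were also counted. Whether fewer cells of a type or less RNA per cell lies behind a level cannot be told apart in such bulk samples.

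In the edgeR test on 4 samples no interleukin gene reached an adjusted p under 0.01 with an absolute log2 fold change above 1, and neither did any of the 16598 genes tested (0%). At an unadjusted p under 0.05, 5 of the 63 interleukin genes passed (4 receptor chains and 1 decoy), against 12.5% of all genes. On the same samples DESeq2 called 587 genes (2.96%) and limma-voom 0, with no interleukin gene among them. With the 6 libraries as separate replicates edgeR called 2.51% of all genes and no interleukin gene, and DESeq2 4.68% and Il22ra2 alone. A permutation of 2 against 2 samples cannot give a two-sided p below 0.333. When the deposit, inferred from the re-used mark in the labels, was entered as a replicate block, 5.12% of all genes were called. Among them were 2 interleukin genes. Il10 was higher, as were 3.89% of all genes, and Il22ra2 lower after PNX, as were 1.23%. At the same adjusted p with no limit on fold, a rule added after the values were seen, 6 of the 63 genes passed (9.52%), against 9.54% of all genes. These were Il10, Il1a and Il1r1, which were higher (against 6.22% of all genes), and Il22ra2, Il6ra and Il7r, which were lower (against 3.32%). Under this rule the share was close to that of all genes, whereas with both limits it was 3.17% against 5.12%. The block leaves 1 residual degree of freedom, and the p-values measure only the spread between these samples.

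**Figure D1:**
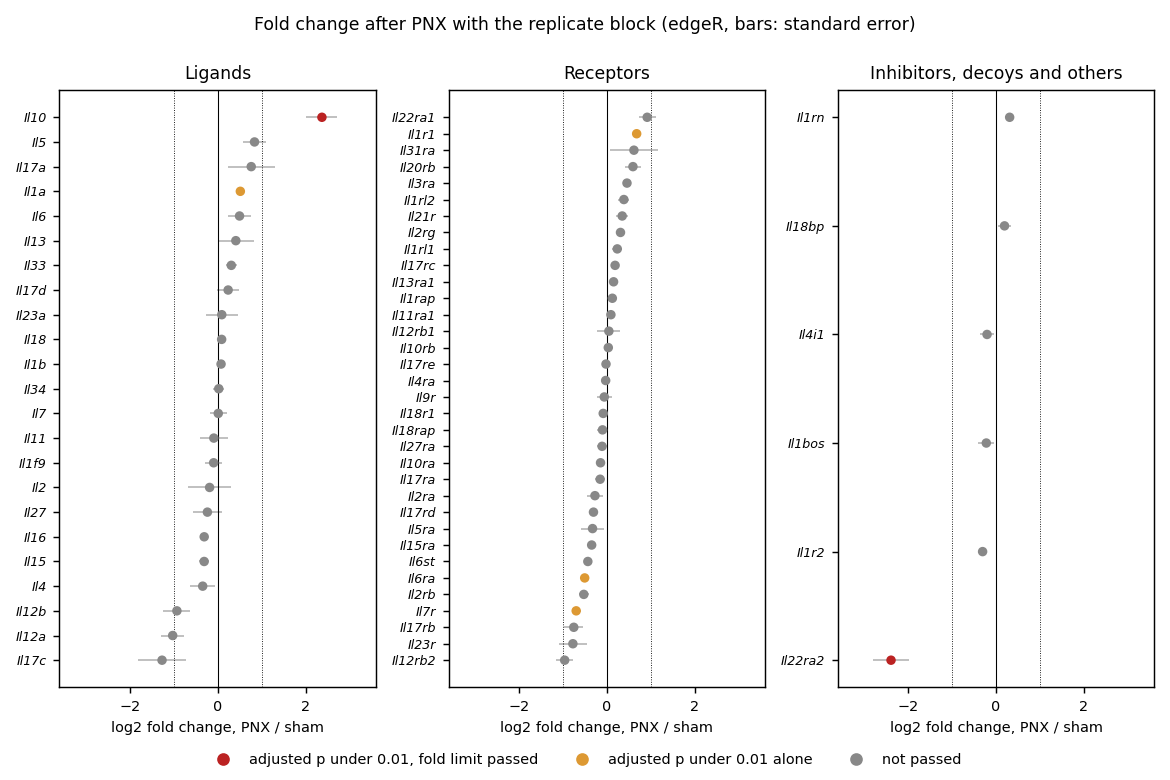
Each point is the edgeR log2 fold change (horizontal axis, PNX over sham, replicate block) of a tested interleukin gene, with its standard error as a bar, in panels of 23 ligands, 34 receptor chains, and inhibitors, decoys and others; dotted lines mark the fold limit. Il10 at 2.37 and Il22ra2 at -2.39 are the 2 genes that pass both limits, and Il1a, Il1r1, Il6ra and Il7r pass the adjusted p alone.

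The ligands with the highest level were members of the IL-1 family. Levels of different genes are compared as deposited TPM, the per-length level, of the transcript with the highest count. Il1b, the inflammasome-dependent form of IL-1, had a mean of 342 TPM over the 6 libraries (245 to 500 TPM). Next came Il18 (49.1 TPM, 38.7 to 67.9), a relative that drives interferon-gamma production, Il1a (28.8 TPM, 18.5 to 45.2), the alarmin form of IL-1, and Il33 (26.6 TPM, 16.4 to 30.5), a nuclear alarmin. Il6, the ligand of gp130 signalling (24.7 TPM, 11.6 to 39.3), and Il16 (12.2 TPM), a chemoattractant for CD4+ cells, completed the 6. Il1b stood apart from all others, while the ranges of Il18, Il1a, Il33 and Il6 overlapped with their neighbours in this order. Il33 has several counted transcripts, and would take the second place at 52.9 TPM if these were added. By such sums Il15, at 21.5 TPM, would be among the 6 in place of Il16. The sums may count reads shared by transcripts more than once.

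**Figure D2:**
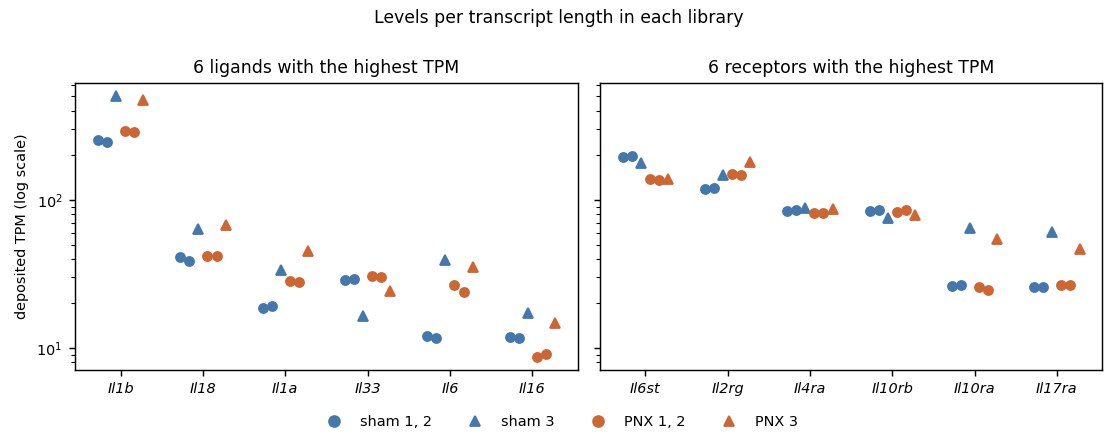
Deposited TPM (log axis) of the 6 ligands and 6 receptor chains with the highest mean, with a point for each of the 6 libraries and triangles for replicate 3. Il1b lies between 245 and 500 TPM in every library, above all other ligands, and Il6st and Il2rg are the receptor chains with the highest means.

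None of these abundant ligands passed both limits, and only Il1a passed the adjusted p alone. The level of Il1b was 133, 129 and 266 CPM in sham replicates 1, 2 and 3 and 156, 155 and 249 CPM after PNX. The groups overlap and the high libraries are both of the later deposit (log2 fold change 0.08 with the block, adjusted p = 0.638 by edgeR). Exons of Il1b and Il1bos overlap on opposite strands, and the strand setting of the counting is not stated. Il18 was 14.1, 13.3 and 21.9 CPM in sham and 14.7, 14.6 and 23.2 CPM after PNX, with the same overlap (log2 fold change 0.09, adjusted p = 0.547 by edgeR with the block). Il33 was 57.5, 58.9 and 33.4 CPM in sham and 62.4, 61.4 and 48.8 CPM after PNX. It is the only one of the 6 that was lower in the later deposit of both groups (log2 fold change 0.31, edgeR adjusted p = 0.126 with the block). Il6 was 5.19, 4.98 and 17.1 CPM in sham and 11.6, 10.5 and 15.0 CPM after PNX. It was higher after PNX in the earlier deposit (log2 difference 1.09) and not in the later one (-0.16), and its adjusted p was 0.225 by edgeR with the block. Il16 was 23.2, 22.9 and 34.3 CPM in sham and 17.6, 18.2 and 28.9 CPM after PNX, lower within each deposit but overlapping between groups (log2 fold change -0.31, edgeR adjusted p = 0.0561 with the block). Exons of Stard5 and 2310044K18Rik overlap it on the opposite strand.

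Il10, which restrains macrophage and T cell responses, was the ligand with the largest difference. Its counts were 12, 21 and 45 in sham replicates 1, 2 and 3 and 136, 122 and 126 after PNX, or 0.149, 0.293 and 1.34 CPM and 1.83, 1.86 and 4.22 CPM. All PNX libraries lay above all sham libraries, as for 18.8% of all genes, and in each group the later deposit was the high one. Sham had a mean of 0.772 ± 0.782 CPM and PNX of 3.05 ± 1.72 CPM (SD, n = 2). The log2 fold change was 2.09 ± 0.96 (SE) without the block, with an edgeR adjusted p of 0.485, and 2.37 ± 0.35 with it, with an edgeR adjusted p of 0.00400. The call with the block was lost without sham replicate 2 (edgeR adjusted p = 0.0155), without PNX replicate 1 (0.0232) and with DESeq2 size factors (0.0132). Within the earlier deposit PNX exceeded sham 8.51-fold (95% exact interval 5.91 to 12.6, counting error only) and within the later one 3.16-fold (2.23 to 4.55). The gene lies on the forward strand at chr1:131019845-131024974 (GRCm38), where no other annotated gene overlaps it. At 3.10 TPM on average it was the eleventh ligand in level. Macrophages are a known source of IL-10. The 8 measured macrophage markers summed to 395 to 781 CPM in sham and 898 to 1159 CPM after PNX, with Mrc1 most abundant. With the block 4 of the 8 (C1qa, C1qb, C1qc and Marco) were called higher. Mertk went the other way, without a call (log2 fold change -0.31 with the block). B cell markers, of which some subsets also make IL-10, were 184 to 248 CPM in sham and 122 to 172 CPM after PNX. Their part in the result was not tested.

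The receptor chains of IL-10 did not move with the ligand. Il10ra, its specific chain, was 35.9, 36.9 and 90.7 CPM in sham and 36.7, 35.0 and 74.9 CPM after PNX, with both high values in the later deposit (log2 fold change -0.15, edgeR adjusted p = 0.287 with the block). Il10rb, the shared chain, was 61.6, 62.7 and 55.7 CPM in sham and 62.4, 63.5 and 57.5 CPM after PNX (log2 fold change 0.03, edgeR adjusted p = 0.825 with the block). Its 6 values lie within a narrow band, and Gm21970 shares exons with it on the same strand.

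Il22ra2, a soluble receptor that binds and neutralises IL-22, was the gene with the largest decrease. Its counts were 65, 66 and 9 in sham and 15, 7 and 2 after PNX, or 0.806, 0.921 and 0.267 CPM and 0.202, 0.107 and 0.0671 CPM. All PNX libraries lay below all sham libraries, as for 17.9% of all genes, and the lowest value of each group was in the later deposit. Sham averaged 0.568 ± 0.429 CPM and PNX 0.112 ± 0.0627 CPM (SD, n = 2). The log2 fold change was -2.23 ± 0.76 (SE) without the block (edgeR adjusted p = 0.341) and -2.39 ± 0.42 with it (edgeR adjusted p = 0.00795). The call with the block was lost without any 1 of sham replicates 1 and 2 and PNX replicates 1 and 2 (edgeR adjusted p = 0.0124 to 0.0240) and with DESeq2 size factors (0.0157). Sham exceeded PNX 5.47-fold in the earlier deposit (95% exact interval 3.47 to 9.03). In the later deposit the ratio rests on 9 and 2 counts and was 3.99, with an interval of 0.825 to 37.9 that includes equality. The gene lies at chr10:19621998-19634681 on the forward strand with no overlapping gene. Dendritic cells are a known source of this decoy, and the 7 markers of dendritic cells summed to 366 to 497 CPM in sham and 316 to 412 CPM after PNX, with Ccr7 called lower (log2 fold change -1.15 with the block). Alveolar epithelial markers, at the levels given above, had fitted differences below 0 for 8 of 8 genes. Their summed level was lower in the later deposit of both groups, but not each gene was, since Sftpc, Sftpb and Sftpa1 were highest in replicate 3 of sham. Their part in the result was not tested. Il22 itself had 0, 2 and 4 counts in sham and 1, 3 and 0 after PNX and was not tested, so a difference in the ligand was not detectable at this depth. Il22ra1, the signalling receptor, was 1.61, 1.13 and 2.61 CPM in sham and 2.33, 2.55 and 5.40 CPM after PNX, without passing the adjusted p (0.0163 by edgeR with the block).

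**Figure D3:**
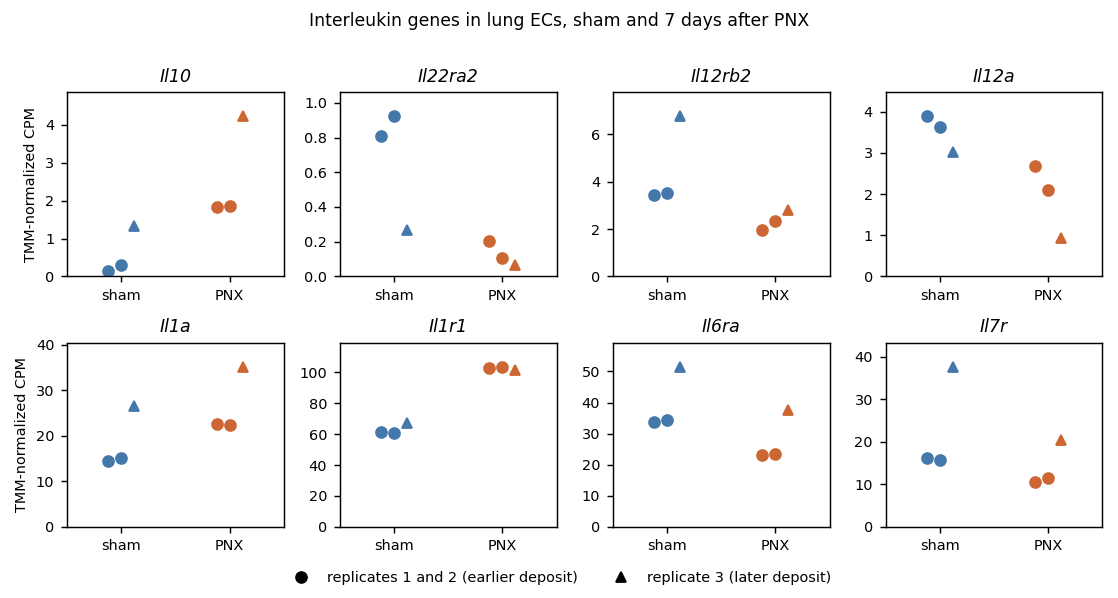
TMM-normalized CPM of 8 interleukin genes in the 6 libraries (vertical axes start at 0), with circles for replicates 1 and 2 and triangles for replicate 3. Il10 and Il1r1 are higher in every PNX library than in any sham library, Il22ra2, Il12rb2 and Il12a are lower, and Il1a, Il6ra and Il7r overlap between groups. Within each deposit Il1a is higher and Il6ra and Il7r are lower after PNX.

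No gene of IL-12 or its receptor was called. With the block 3 of the 4 (Il12a, Il12b and Il12rb2) had fitted differences below 0, as did 8595 of the 16598 genes tested. IL-12 is a dimer of Il12a and Il12b that directs T and NK cells to interferon-gamma, and Il12rb2 is its signalling receptor chain. Il12rb2 counts were 276, 253 and 227 in sham and 146, 152 and 83 after PNX, or 3.42, 3.53 and 6.74 CPM and 1.96, 2.32 and 2.78 CPM. No library of one group reached the other, and the log2 fold change was -1.05 ± 0.40 (edgeR adjusted p = 0.396) without and -0.96 ± 0.19 (edgeR adjusted p = 0.0133) with the block, so the call was not made in either. It was made with the block without PNX replicate 2 (log2 fold change -1.03, edgeR adjusted p = 0.00833). Sham exceeded PNX 1.63-fold in the earlier deposit (95% exact interval 1.41 to 1.89) and 2.42-fold in the later (1.88 to 3.15). The gene lies on the reverse strand at chr6:67291318-67376188, and exons of Serbp1 overlap it on the opposite strand. Il12a was 3.88, 3.63 and 3.03 CPM in sham and 2.69, 2.09 and 0.939 CPM after PNX, again without overlap (log2 fold change -1.02 with the block, edgeR adjusted p = 0.0318). Il12b was 0.968, 0.879 and 3.53 CPM in sham and 0.848, 0.488 and 1.24 CPM after PNX, with overlap between groups (log2 fold change -0.93, edgeR adjusted p = 0.0697 with the block). Il12rb1, the other receptor chain, was 0.881, 0.447 and 1.78 CPM in sham and 0.538, 0.747 and 2.05 CPM after PNX, so it was not lower (log2 fold change 0.04, edgeR adjusted p = 0.926 with the block). Of the 8 genes of the IL-12 family, 6 had a fitted difference below 0, beside the 8595 of 16598 given above. Their median was -0.50, against -0.01 over all genes tested. None of the 8 was called in either fit. Markers of T cells summed to 97.9 to 175 CPM in sham and 79.2 to 140 CPM after PNX, and those of NK cells to 18.7 to 22.1 and 14.2 to 22.2 CPM. Their part in these values was not tested.

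Among the receptor chains the highest levels were those of shared subunits. Il6st (gp130) had a mean of 164 TPM (136 to 197) and Il2rg 144 TPM (118 to 181). Il4ra, the receptor of IL-4 and IL-13, followed at 84.9 TPM (82.0 to 87.8), Il10rb at 82.1 TPM (75.0 to 85.8), Il10ra at 37.1 TPM (24.8 to 64.7) and Il17ra, the common chain of IL-17 receptors, at 35.4 TPM (25.8 to 60.4). The ranges of Il6st and Il2rg overlap, as do those of Il4ra and Il10rb and of Il10ra and Il17ra. Il15ra and Il11ra1 have several transcripts. If these were added, they would rank 3 and 4 at 124 and 96.4 TPM, ahead of Il4ra. Il10ra and Il17ra would then no longer be among the first 6. Such sums may count reads shared by transcripts more than once.

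Il6st was 422, 425 and 386 CPM in sham and 305, 300 and 296 CPM after PNX. The groups do not overlap and the 3 PNX values differ little (log2 fold change -0.43 ± 0.10 with the block, edgeR adjusted p = 0.0192). Il2rg was 75.1, 76.7 and 95.2 CPM in sham and 97.1, 95.3 and 115 CPM after PNX, where the groups barely separate (log2 fold change 0.31, edgeR adjusted p = 0.0309 with the block), and Gm20489 shares exons with it on the same strand. Il4ra was close in all libraries, with 171, 172 and 179 CPM in sham against 169, 169 and 175 CPM after PNX (log2 fold change -0.03). Exons of Gm44876 overlap Il4ra on the opposite strand. Il17ra was 40.6, 40.4 and 96.2 CPM in sham and 42.5, 42.8 and 73.5 CPM after PNX, with its high values in the later deposit (log2 fold change -0.15, edgeR adjusted p = 0.361 with the block).

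Il1r1, the signalling receptor of IL-1, was the receptor chain with the smallest p. This gene, Il6ra and Il7r were picked out after their values were seen. Il1r1 counts were 4965, 4335 and 2261 in sham and 7641, 6797 and 3020 after PNX, or 61.6, 60.5 and 67.2 CPM and 103, 104 and 101 CPM. Every PNX library lay above every sham library, and the deposits gave nearly the same level. On average sham had 64.2 ± 3.31 CPM and PNX 102 ± 0.231 CPM (SD, n = 2). The log2 fold change was 0.67 ± 0.13 without the block (edgeR adjusted p = 0.140) and 0.68 ± 0.08 with it (edgeR adjusted p = 0.00168), a 1.60-fold difference that stays under the fold limit, and leaving out a library beside the block gave at most 0.00860. With the 6 libraries as separate replicates its edgeR adjusted p was 0.00286. That fit takes replicates 1 and 2 as independent, though they lay close to counting error of each other. Counts of Il1r1 sum 2 transcripts with nearly equal counts (2487 and 2478 in sham replicate 1), so shared reads may enter more than once. If so, the intervals that follow are too narrow even for counting error. For Il1r1, PNX exceeded sham 1.69-fold in the earlier deposit (95% exact interval 1.65 to 1.73) and 1.51-fold in the later (1.43 to 1.59). Its ligand Il1a, with 14.5, 15.1 and 26.5 CPM in sham against 22.7, 22.3 and 35.2 CPM after PNX, was higher within each deposit but overlapped between groups (log2 fold change 0.51 ± 0.09, edgeR adjusted p = 0.00897 with the block), and its adjusted p rose to 0.0152 without sham replicate 1, 0.0144 without sham replicate 2 and 0.0252 without PNX replicate 1. Exons of Gm14023 overlap Il1a on the opposite strand. The other genes of this axis did not pass. Il1rap, the accessory chain, was 41.6, 39.0 and 45.1 CPM in sham and 47.0, 42.0 and 48.4 CPM after PNX, and Il1rn, the receptor antagonist, was 70.2, 70.0 and 119 CPM in sham and 101, 98.7 and 127 CPM after PNX (edgeR adjusted p = 0.325 and 0.0729 with the block). Il1r2, the decoy receptor, was 7.93, 7.86 and 31.1 CPM in sham and 6.03, 5.76 and 27.2 CPM after PNX, separated by deposit rather than by group. With the block, 5 of 7 fibroblast markers and 3 of 10 endothelial markers had fitted differences above 0. The other 2 and 7 were below 0. The part of these cell types in the level of Il1r1 was not tested.

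Il6ra, the specific chain of IL-6, was 33.7, 34.4 and 51.5 CPM in sham and 23.0, 23.4 and 37.5 CPM after PNX. It was lower within each deposit and the groups overlap, since PNX replicate 3 exceeds sham replicates 1 and 2 (log2 fold change -0.51 ± 0.09 and edgeR adjusted p = 0.00741 with the block, 0.635 without). Without sham replicate 1 or PNX replicate 1 its adjusted p with the block was 0.0132 and 0.0170. Exons of Gm42809 overlap it on the opposite strand. Il7r, the receptor of IL-7 on lymphocytes, was 16.2, 15.8 and 37.6 CPM in sham and 10.6, 11.6 and 20.5 CPM after PNX, with the same kind of overlap (log2 fold change -0.70 ± 0.11 and edgeR adjusted p = 0.00449 with the block, 0.645 without). Without sham replicate 1 or PNX replicate 1 its adjusted p with the block was 0.0107 and 0.0285. T cell markers were at the levels given above, with 4 of 9 lower at an adjusted p under 0.01 with the block, and 4 of the 6 B cell markers were lower by the same rule. Their part in the result was not tested.

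The sequences upstream of these 4 genes are shown because their differences passed the adjusted p and a promoter was at hand. Each is the 250 bases before the RefSeq start (GRCm38.p6), 5′ to 3′ on the strand of the gene, with capitals for a motif match. The RefSeq start is that of the counted transcript for Il1r1 and Il1a, and lies 34 and 41 bases upstream of it for Il6ra and Il7r, so distances are from the RefSeq start. The windows are chr1:40224830-40225079 (forward) for Il1r1, chr2:129309973-129310222 (reverse) for Il1a, chr3:89913197-89913446 (reverse) for Il6ra and chr15:9529877-9530126 (reverse) for Il7r. The motifs searched on both strands were TTCNNNGAA (STAT) and TGANTCA (AP-1), which did not overlap each other in these windows.
Il1r1: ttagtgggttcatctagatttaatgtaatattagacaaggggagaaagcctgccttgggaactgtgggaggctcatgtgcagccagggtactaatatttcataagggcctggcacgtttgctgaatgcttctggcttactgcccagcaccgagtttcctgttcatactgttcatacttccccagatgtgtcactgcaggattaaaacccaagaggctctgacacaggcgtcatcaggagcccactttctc
Il1a: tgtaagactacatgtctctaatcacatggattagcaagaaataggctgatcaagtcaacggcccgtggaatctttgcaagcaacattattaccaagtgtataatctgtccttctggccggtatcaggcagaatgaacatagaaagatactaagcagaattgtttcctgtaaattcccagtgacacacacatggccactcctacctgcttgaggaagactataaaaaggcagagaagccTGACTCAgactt
Il6ra: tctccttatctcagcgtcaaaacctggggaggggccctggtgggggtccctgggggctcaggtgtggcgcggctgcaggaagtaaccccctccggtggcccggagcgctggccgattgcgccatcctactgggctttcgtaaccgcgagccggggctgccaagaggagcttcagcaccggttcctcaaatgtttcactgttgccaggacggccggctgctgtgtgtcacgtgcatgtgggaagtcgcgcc
Il7r: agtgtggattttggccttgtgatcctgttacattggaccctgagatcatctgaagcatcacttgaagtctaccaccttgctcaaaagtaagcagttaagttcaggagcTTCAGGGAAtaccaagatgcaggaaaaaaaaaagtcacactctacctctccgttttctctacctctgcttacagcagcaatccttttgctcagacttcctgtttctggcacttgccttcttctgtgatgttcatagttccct
An AP-1 match begins 12 bases before the start of Il1a and a STAT match 142 bases before that of Il7r. No match was found in the windows of Il1r1 and Il6ra. The STAT motif stands in 7.02% of 32851 promoter windows of this length and the AP-1 motif in 6.75%. Of the 83 interleukin genes, 66 had a promoter entry, with 81 windows between them. The STAT motif stood in 9 and the AP-1 motif in 14 of these 81 windows, the unit of the shares above. The windows with a match belonged to 9 and 14 genes.

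The remaining tested genes showed smaller or less even differences. With the block the 23 ligands had a median log2 fold change of 0.02 (-1.27 to 2.37) and the 34 receptor chains of -0.04 (-0.96 to 0.92), beside -0.01 over all genes tested. The groups did not overlap for 12 of the 63 genes (19.0%), against 36.7% of all genes tested. Those above sham were Il10, Il1r1, Il20rb, Il2rg and Il3ra, and those below Il12a, Il12rb2, Il15, Il15ra, Il17rd, Il22ra2 and Il6st. Il3ra, the IL-3 chain, was 15.8, 16.9 and 15.8 CPM in sham and 22.7, 22.1 and 21.7 CPM after PNX. It did not pass, with an edgeR adjusted p of 0.0149 with the block and 0.297 without. IL-15 and the chain that presents it were both below sham. Il15 was 12.5, 11.8 and 11.5 CPM in sham and 10.7, 10.8 and 8.38 CPM after PNX, and Il15ra was 90.1, 85.7 and 80.2 CPM and 76.6, 69.9 and 59.2 CPM, with edgeR adjusted p of 0.111 and 0.0244 with the block. By family, the 14 tested genes of the IL-1 family had a median of 0.16 and the 8 of the IL-17 family -0.09. The median was -0.12 for the 14 of the common gamma chain family and 0.46 for the 3 of the common beta chain family. It was 0.00 for the 6 of the IL-6 family and 0.31 for the 6 of the IL-10 family, the last of which holds both called genes.

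Genes that carry interleukin signals inside the cell or pair with the receptors were taken from a list of 50, all of which were tested. None was called in either fit, against 5.12% of all genes with the block, and 3 of the 50 passed the adjusted p alone, against 9.54% of all genes. Lifr, a partner of gp130, was 171, 173 and 170 CPM in sham and 104, 104 and 107 CPM after PNX (log2 fold change -0.70 ± 0.08, edgeR adjusted p = 0.00155 with the block and 0.132 without). Crlf2, which forms the TSLP receptor with Il7r, was 38.1, 40.2 and 39.8 CPM in sham and 59.7, 60.8 and 53.2 CPM after PNX (log2 fold change 0.52 ± 0.09, edgeR adjusted p = 0.00628 with the block). Pycard, the inflammasome adaptor, was 5.24, 5.46 and 9.83 CPM in sham and 12.4, 11.8 and 14.6 CPM after PNX (log2 fold change 0.89 ± 0.16, edgeR adjusted p = 0.00752 with the block). For all 3 the groups do not overlap. These 3 genes were named after their values were seen. None of the 11 JAK and STAT genes, the 8 genes of their feedback or the 13 genes of IL-1 and IL-17 signalling passed the adjusted p, and the median over the 50 genes was -0.01.

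For many interleukin genes the deposits differed more than the groups. Of the 63 tested genes, 12 (19.0%) were over 2-fold higher in the later deposit in both sham and PNX, against 2.70% of all genes tested, and 0 were over 2-fold lower in both. They were named after their values were seen. Il17a, a neutrophil-recruiting cytokine of T cells, was 5.25-fold higher in sham and 18.9-fold higher after PNX, though its earlier level was at most 0.136 CPM. Il1r2 was 3.84-fold and 4.64-fold higher, Il23r, the IL-23 receptor chain, 3.45-fold and 4.31-fold, and Il18rap, the IL-18 accessory chain, 3.03-fold and 2.38-fold. Il10, Il10ra, Il12rb1, Il2ra, Il2rb, Il17rb, Il1f9 and Il1bos were the others. Neutrophil markers summed to 242 and 249 CPM in sham replicates 1 and 2 and to 704 CPM in replicate 3, and to 278 and 271 CPM after PNX in replicates 1 and 2 and to 582 CPM in replicate 3, with Csf3r most abundant. The summed markers of T cells, B cells, macrophages, dendritic cells, fibroblasts and mesothelium were also highest in replicate 3 of each group. Those of mesothelium were 158, 160 and 383 CPM in sham and 328, 333 and 856 CPM after PNX. The other lists were not highest there in both groups. Their part in the difference was not tested.

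**Figure D4:**
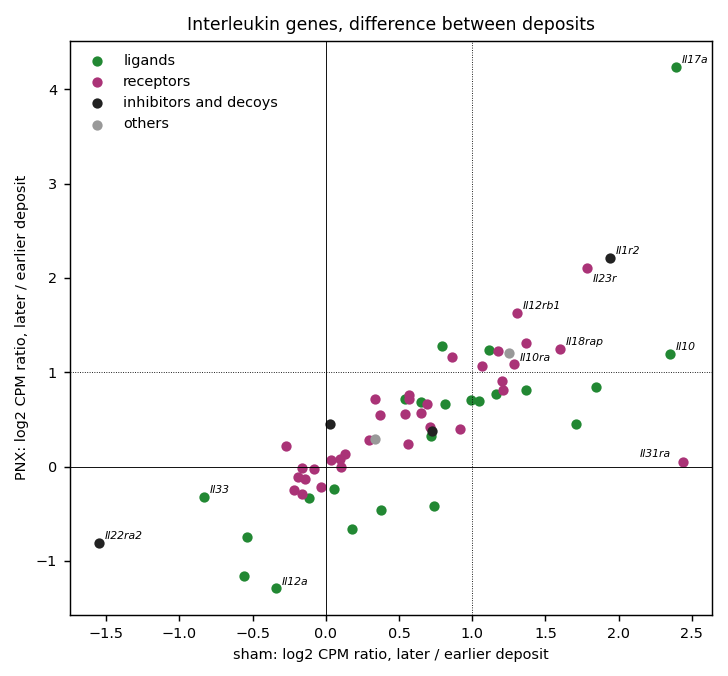
Log2 ratio of CPM in the later over the earlier deposit in sham (horizontal axis) and after PNX (vertical axis) for the 63 tested interleukin genes, coloured by role; dotted lines mark a 2-fold difference. In the upper right field, 12 genes are over 2-fold higher in the later deposit of both groups, with Il17a farthest out, while Il22ra2 and Il33 lie to the lower left.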

How the data were processed

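Bulk RNAseq of CD31-bead isolated lung ECs was analysed in 3 sham and 3 PNX libraries. Stranded mRNA libraries were sequenced paired-end, and the authors mapped the reads to mm10 (GRCm38) and deposited, per RefSeq transcript, an unnormalized count with FPKM and TPM (STAR is named in the submitters' processing notes). How reads were assigned to transcripts is not given in the sources used here. FPKM values as deposited were not used, and the deposited TPM served for levels between genes only.

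Counts were summed per symbol, and replicates 1 and 2 of a group were summed to 1 sample (chi-square over 1-transcript genes with at least 20 counts in the pair). Reads shared by transcripts may be counted more than once for the 18 interleukin genes with several transcripts. The test was the quasi-likelihood test of edgeR 4.0.16 (R 4.3.3) with TMM scaling and filterByExpr, adjusted by Benjamini-Hochberg over every gene that passed the filter. Calls needed an adjusted p below 0.01 together with a log2 fold change beyond 1 in size. DESeq2 1.42.0 and limma 3.58.1 (voom) were alternatives, beside other scalings, filters, transcripts and left-out libraries. The edgeR fits with and without the block were tested on simulated counts. These had the same dispersion for every gene, and only genes with a mean count of at least 50 were changed. They therefore do not bear on calls at lower counts, such as that of Il22ra2. CPM use TMM-scaled library sizes, differences within a deposit and between deposits are log2 of CPM with 0.05 added, and n = 2 counts deposits. Exact intervals are Clopper-Pearson at 95%, and these and the limits for 0 counts cover counting error only. For Il1r1, which has several transcripts, shared reads may make the intervals too narrow.

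The pairing of samples by deposit was inferred from the re-used mark in the labels, as the titles name no batch or date. Over 13913 genes with a mean count of at least 100, the later-to-earlier difference in sham followed that in PNX (Pearson's r 0.738 and Spearman's rho 0.746, across genes, which are not independent). Positions are from GENCODE vM21.

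The genes and lists were chosen with earlier results of these data known. Values per library are given for genes called with the block, those with a mean count of at least 50, a log2 fold change of at least 1 in size and no overlap of groups, the 6 ligands and 6 receptors highest in TPM, and partners of the first sets. Others named were chosen after their values were seen.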

Additional observations from a re-analysis of the deposited data

How the results depend on the processing

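Without the block, no setting called an interleukin gene except DESeq2 on 6 libraries (Il22ra2, so 1 decoy). The replicate block, the block with the transcript of highest count, and 6 libraries with the deposit as a term each called 1 ligand (Il10) and 1 decoy (Il22ra2). DESeq2 with the block called 1 ligand (Il10), with an adjusted p of 0.116 for Il22ra2. With the block and no fold limit 2 ligands, 3 receptors, 1 decoy and 3 signalling genes passed. The calls of both genes were lost when the block was combined with DESeq2 size factors or library size alone (0 interleukin genes, and 624 and 629 genes in all, 86.5% and 87.4% of them higher, against 849 and 76.0% with TMM). Leaving out 1 library beside the block gave 0 to 1 ligands, 0 to 1 receptors (Il12rb2, without PNX replicate 2) and 0 decoys. Without PNX replicate 1 the block called 485 genes. The calls of both genes were lost without sham replicate 2 or PNX replicate 1, and that of Il22ra2 also without sham replicate 1 or PNX replicate 2. The edgeR adjusted p of Il10 ranged from 0.00363 to 0.0232 and that of Il22ra2 from 0.0124 to 0.0240 in these fits. The block changed no other call. Without the block, 6 libraries as separate replicates gave 409 calls, none of them an interleukin gene.

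Leaving out 1 library without the block moved the ligand median from 0.02 to between -0.15 and 0.19 and the receptor median from -0.04 to between -0.20 and 0.26, both ends being without a replicate 3, where the lone sample is assumed to vary like the other group. With the block and 1 library left out the receptor median ranged down to -0.066 (PNX replicate 1 left out), with -0.057 when sham replicate 2 and -0.055 when PNX replicate 2 was left out. It was -0.012 under DESeq2 on 6 libraries and -0.055 with the transcript of highest count, and the ligand median was -0.16 in the later deposit alone. Of 599 alternative values over 20 genes, 569 kept direction and side of the threshold, 17 passed it and 13 changed sign. Values of a deposit alone have no p and were judged by sign only. Settings that change only the threshold reuse a fit, so their direction was fixed. Because the main fit called 0 of 16598 genes, staying on the uncalled side says little about robustness. Leaving out 1 library, where the first value of each pair is without sham replicate 3 and the other without PNX replicate 3, moved the log2 fold change to 0.60 and -0.82 for Il10ra, -0.049 and 0.083 for Il10rb, 0.0051 and -1.67 for Il12b, 0.014 and -0.68 for Il16, 0.51 and -0.68 for Il17ra, 0.46 and -0.28 for Il18, 0.62 and -0.36 for Il1b, -0.072 and 0.42 for Il33 and 0.0013 and -0.062 for Il4ra, so each of these changed sign in 1 of them. In the earlier deposit alone the sign changed for Il10rb (-0.0097) and Il17ra (0.046), and in the later deposit alone for Il1b (-0.071) and Il6 (-0.16). The cause was not tested. Il10 ranged from 1.38 to 3.77, Il22ra2 from -2.77 to -1.42, Il12rb2 from -1.25 to -0.51 and Il1r1 from 0.62 to 0.74. At this depth the 20 untested genes could not be compared, and the ratio of Il22ra2 in the later deposit rests on 9 and 2 counts.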

Other observations

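Il1rl1, the receptor of IL-33, was counted as 3 transcripts that code for a longer and a shorter protein, known as the membrane-bound and the soluble form. The transcript with a coding length of 567 codons had 380, 314 and 216 counts in sham and 371, 348 and 233 after PNX. The shorter form, of 337 codons, had 140, 122 and 97 counts in sham and 156, 117 and 108 after PNX in one of its transcripts. Summed over the gene, Il1rl1 was 8.20, 7.79 and 12.2 CPM in sham and 9.19, 8.87 and 15.1 CPM after PNX, with overlapping groups and an edgeR adjusted p of 0.194 with the block. The second transcript of the shorter form had nearly the same counts, and how reads shared between transcripts were assigned is not stated, so the forms were not compared by a test. These transcripts were chosen after their values were seen.

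Il5, a type 2 cytokine that supports eosinophils, was 0.583, 0.447 and 1.25 CPM in sham and 0.928, 1.25 and 1.84 CPM after PNX. The groups overlap, the values are higher after PNX within each deposit, and its edgeR adjusted p was 0.0666 with the block. The 6 markers of group 2 innate lymphoid cells, a source of IL-5, summed to 90.4 to 117 CPM in sham and 155 to 225 CPM after PNX, but Arg1, which macrophages also express, made up the difference. The other 5 markers summed to 89.2 to 112 CPM in sham and 77.4 to 84.8 CPM after PNX. Mast cell and basophil markers summed to 466 to 642 CPM in sham and 429 to 520 CPM after PNX, nearly all of it Kit. The other 8 summed to 8.13 to 15.1 CPM in sham and 16.1 to 32.6 CPM after PNX, and 4 of the 9 were called higher with the block. Their part in the level of Il5 was not tested.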
